A study of Mus musculus with 2 samples.

Results

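Transcripts of 7 Fc receptor genes, Fcgr1, Fcgr4, Fcgr3, Fcgr2b, Fcer1g, Fcer1a and Ms4a2, were followed across the leukocytes of a mouse melanoma. They are 7 of the 27998 genes listed in the count tables, and were chosen by name as the receptors for IgG and IgE and the chains that signal for them. All 7 were found, and their unique molecule counts (UMIs) were summed for each cell type name of the authors' annotation and for each library. The cells were CD45+ DAPI− leukocytes sorted from YUMM1.7 tumours, a mouse melanoma line, 19 days after the line was injected subcutaneously into human APOE2 or human APOE4 knock-in mice. Each genotype was read as 1 library in which 6 mice were pooled with 10000 sorted cells per mouse, so no spread between mice can be had. The comparison asks how the Fc receptor transcripts of tumour leukocytes differ between hosts with these forms of APOE, a lipid carrier made by macrophages among other cells.

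Fc receptors bind the constant part of antibodies and turn an antibody coat into a cell response such as phagocytosis, cytokine release or degranulation. The high affinity IgG receptor (Fcgr1) and the receptors encoded by Fcgr3 and Fcgr4 are activating: they lack a signalling tail of their own and pair with the common gamma chain (Fcer1g), whose ITAM motif recruits the kinase Syk. Fcgr2b encodes the inhibitory IgG receptor, which carries an ITIM motif and recruits the phosphatase SHIP1 (Inpp5d). Fcer1a and Ms4a2 encode the alpha and beta chains of the high affinity IgE receptor, which mast cells and basophils carry together with the gamma chain. In macrophages, Fcgr1 and Fcgr4 are known as genes that interferon gamma raises, and the balance of activating to inhibitory receptors is known to set the response to IgG.

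The annotated cells numbered 4665 in APOE2 and 5385 in APOE4, with medians of 7160 and 5560 UMIs per cell, and 8 barcodes occurred in both libraries. The 26 names were also merged into classes: monocytes and macrophages (Monocytes 1 to 3, 2 Mø clusters and a skin resident label), dendritic cells (DCs), MDSCs, NK cells, T cells, B cells and mast cells. Levels are given as CPM, UMIs scaled to the total of the class or label, ratios are APOE4 over APOE2, and brackets hold the exact 95% interval of a ratio, which covers counting error only. A gene was called higher or lower where at least 20 UMIs were counted, the ratio was at least 1.5-fold from 1 and its interval left out 1. There is no test, since 1 library per genotype gives no replicates. Markers of the classes were checked: the labels named MDSC had neutrophil markers (S100a8, S100a9, Csf3r, Retnlg and Cxcr2) at a summed 98888 CPM in APOE2 and 85272 CPM in APOE4, above their macrophage markers (438 and 201 CPM). The macrophage markers were Adgre1, C1qa, C1qb, Mrc1, Cd68 and Apoe, and the monocyte markers Ly6c2, Ccr2, Plac8, Vcan and Fn1. The hosts differ in the form of APOE, so every macrophage sum given here holds a gene tied to the genotype. The part of Apoe in those sums was not tested.

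Over all annotated cells, the activating genes Fcgr1 and Fcgr4 were higher in the APOE4 library and the inhibitory gene Fcgr2b was lower. Fcgr1 stood at 172 CPM in APOE2 and 274 CPM in APOE4, a ratio of 1.59 [1.55, 1.64]. Fcgr4 stood at 70.2 and 130 CPM, a ratio of 1.85 [1.76, 1.94]. Fcgr2b stood at 488 and 293 CPM, a ratio of 0.600 [0.586, 0.615]. These totals mix cell types whose shares differ between the libraries: NK cells were 247 in APOE2 and 744 in APOE4, T cells 430 and 910. Fewer cells of a type and less RNA per cell cannot be told apart in such a total. Fcgr3, at 417 and 320 CPM, had a ratio of 0.766 [0.748, 0.784], and the shared gamma chain Fcer1g, at 2098 and 2229 CPM, one of 1.06 [1.05, 1.07]. The genes of the IgE receptor were low in such totals, Fcer1a at 18.7 and 6.63 CPM and Ms4a2 at 4.57 and 2.22 CPM.

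The genes lie on 3 chromosomes (mm10 coordinates). Fcgr2b (chr1:170958617-170976547, minus strand), Fcgr4 (chr1:171018920-171029761, plus strand), Fcgr3 (chr1:171051174-171064935, minus strand) and Fcer1g (chr1:171229572-171234365, minus strand) share a stretch of 275.7 kb. Fcer1a lies further along the same chromosome (chr1:173221284-173227214), Fcgr1 on chromosome 3 (chr3:96282909-96293969) and Ms4a2 on chromosome 19 (chr19:11615523-11623719), all on the minus strand. All 7 are protein coding. The 250 bases before the start site of Fcgr1 and Fcgr4, whose levels were higher in APOE4, and of Fcgr2b, whose level was lower, are printed for comparison from RefSeq (GRCm38.p6), 5′ to 3′ on the strand of the gene. The windows are chr3:96293970-96294219 on the minus strand for Fcgr1, chr1:171018676-171018925 on the plus strand for Fcgr4 and chr1:170976072-170976321 on the minus strand for Fcgr2b. Capitals mark matches to motifs searched on both strands: the interferon gamma activated site (TTCNNNGAA), an IRF element (GAAANNGAA) and the PU.1 core (GAGGAA, which reads TTCCTC on the other strand).
Fcgr1: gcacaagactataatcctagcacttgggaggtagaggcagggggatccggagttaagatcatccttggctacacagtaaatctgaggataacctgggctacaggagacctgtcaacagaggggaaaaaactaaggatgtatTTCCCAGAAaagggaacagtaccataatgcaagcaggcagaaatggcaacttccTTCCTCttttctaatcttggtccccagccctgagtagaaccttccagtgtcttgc
Fcgr4: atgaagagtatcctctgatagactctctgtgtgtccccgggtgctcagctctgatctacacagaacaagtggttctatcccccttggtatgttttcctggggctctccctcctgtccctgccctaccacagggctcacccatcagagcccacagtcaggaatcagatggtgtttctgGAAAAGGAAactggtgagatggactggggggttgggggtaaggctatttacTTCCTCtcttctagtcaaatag
Fcgr2b: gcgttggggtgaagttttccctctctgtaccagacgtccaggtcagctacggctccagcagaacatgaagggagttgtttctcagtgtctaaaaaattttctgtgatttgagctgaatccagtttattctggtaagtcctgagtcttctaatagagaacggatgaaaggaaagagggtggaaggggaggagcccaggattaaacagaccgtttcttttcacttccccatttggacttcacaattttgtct
The Fcgr1 window held TTCCCAGAA from −109 to −101 and a PU.1 core from −55 to −50, counted back from the start site. The Fcgr4 window held GAAAAGGAA from −73 to −65 and a PU.1 core from −22 to −17. The Fcgr2b window held no match to any of the 3 motifs. It lies inside the gene span given above, as both Fcgr3 windows do, downstream of the gene's first base. The bases before that first base of Fcgr2b were not searched, so its window is not like those of Fcgr1 and Fcgr4. The PU.1 core was not limited to the higher genes: both start sites listed for Fcgr3, whose level was not higher, had the same copy of it (from −6 to −1 of one and from −15 to −10 of the other), as did Fcer1a (from −216 to −211). Among all 32851 promoter windows of that length, 7.02% held the activated site, 7.13% the IRF element and 23.3% the PU.1 core, so a match is a description of the letters and not a site shown to be bound. The windows of Fcer1a and Ms4a2 held the GATA core AGATAA once and 3 times, a core present in 9.99% of all windows.

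Each IgG receptor gene had its own order of cell labels, as the plot of levels by label shows. Fcgr1 was highest in Monocytes 2, at 811 CPM in APOE2 and 964 CPM in APOE4, followed by Monocytes 1 (378 and 526 CPM) and Mø cluster 1 (281 and 453 CPM). The interval of Mø cluster 1 overlapped that of the next label, Diverse (261 and 433 CPM), in both libraries; 25.1% and 37.8% of the Diverse cells had a high doublet score. Fcgr2b was highest in 3 labels whose order could not be fixed: Monocytes 1 (979 and 698 CPM), Mø cluster 1 (863 and 795 CPM) and Mø cluster 2 (870 and 774 CPM). Fcgr4 was highest in a small MDSC label, M-MDSC 2, at 353 and 637 CPM, ahead of Monocytes 2 at 308 and 334 CPM, with overlapping intervals of the 2 labels in APOE2. Fcgr3 was shared by neutrophil-like and monocytic cells: M-MDSC 1 (882 and 753 CPM) and Monocytes 1 (887 and 740 CPM) overlapped in both libraries. Fcer1g was detected in every label: it was low in CD4+ T cells (57.9 and 123 CPM) and CD8+ T cells (101 and 49.7 CPM) and highest in Monocytes 2 (4022 and 4075 CPM) and mast cells (4213 and 3312 CPM). UMIs from the 3′ end do not scale with transcript length, and levels are compared here between labels and libraries within a gene.

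**Figure D1:**
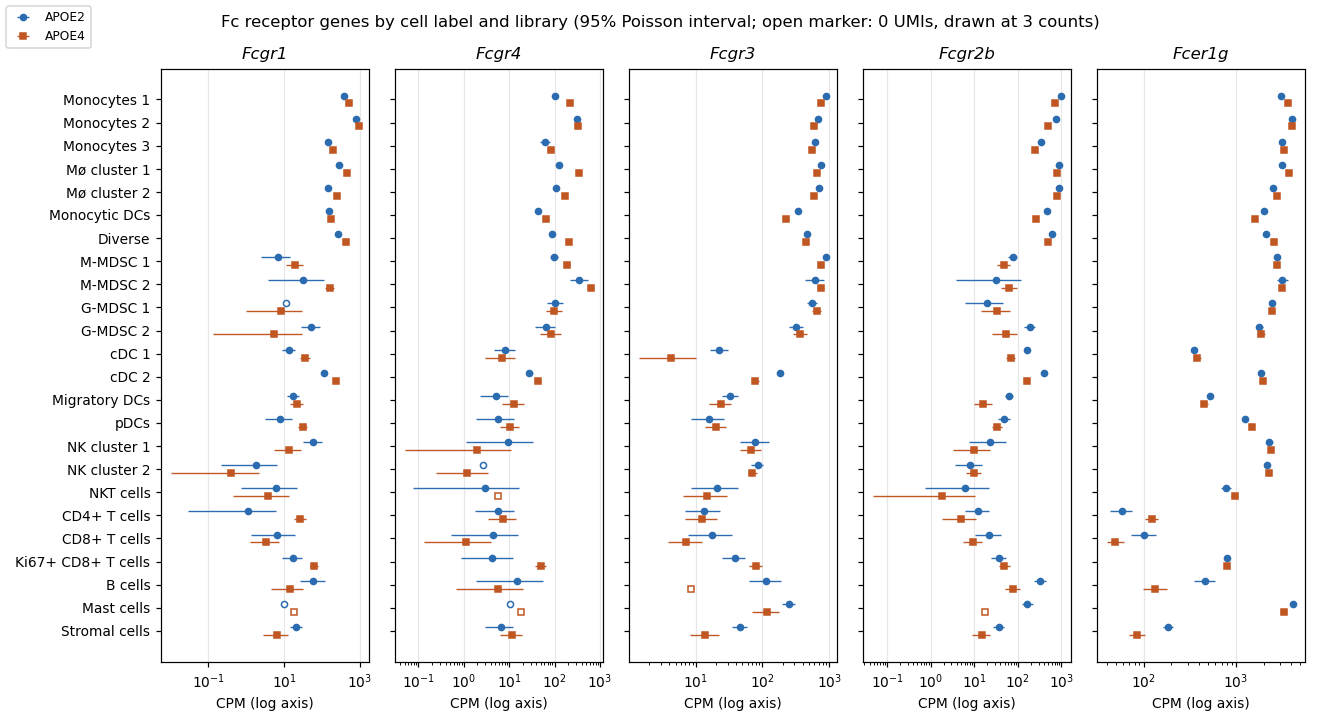
CPM (log axis) of the 4 IgG receptor genes and Fcer1g in 24 labels with at least 20 cells in each library, APOE2 as blue circles and APOE4 as orange squares, with 95% Poisson intervals; open markers are labels with 0 UMIs, drawn at 3 counts. In Mø cluster 1 the APOE4 square lies right of the APOE2 circle for Fcgr1 (281 and 453 CPM) and Fcgr4 (126 and 347 CPM) and left of it for Fcgr2b (863 and 795 CPM).

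Monocytes and macrophages (1734 cells in APOE2 and 1557 in APOE4) held 70.4% and 70.5% of all Fcgr1 UMIs. In this class Fcgr1 was 292 CPM in APOE2 and 569 CPM in APOE4, a ratio of 1.95 [1.88, 2.02], and the median cell held 2 and 3 Fcgr1 UMIs. Fcgr4 was 124 and 257 CPM, a ratio of 2.08 [1.97, 2.20]. Both activating genes were thus higher in APOE4. Fcgr3, the third activating receptor, went slightly the other way, at 701 and 629 CPM, a ratio of 0.897 [0.871, 0.923]. The inhibitory Fcgr2b was 799 and 604 CPM, a ratio of 0.757 [0.735, 0.779], and its median per cell was 6 and 3 UMIs. Fcer1g, the chain that the activating receptors need for signalling, was 2952 and 3645 CPM, a ratio of 1.23 [1.22, 1.25]. Of the 5 members with enough UMIs, 2 were called higher, where 6.93% of all 11508 genes tested were, and 0 were called lower, where 12.4% were. The plot of ratios by class shows these values beside those of the other classes. The median log2 ratio over all genes of the class was −0.07.

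The make-up of this class differed between the libraries, and Monocytes 2, the label with the most Fcgr1, made up 11.9% of its cells in APOE2 and 33.8% in APOE4. It held 27.2% of the class's Fcgr1 UMIs in APOE2 and 53.7% in APOE4. Over the class, the summed macrophage markers, Apoe among them, were 7879 CPM in APOE2 and 4520 CPM in APOE4. The summed monocyte markers were 4205 and 8273 CPM. With the labels of APOE4 weighted by their UMI totals in APOE2, the log2 ratio of Fcgr1 was 0.54 in place of 0.96, and with equal weight for each label it was 0.53; either ends its call at 1.5-fold. That of Fcgr4 was 0.96 and 0.73 under these weights, in place of 1.06, and with the APOE2 weights that of Fcgr2b was −0.27 in place of −0.40. All of these values were smaller in size than those over the class and kept their direction.

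Within labels, the direction of each gene was mostly kept. Fcgr1 was above 1 in 15 of 17 labels with enough UMIs and cells, and the interval lay above 1 in 14 of them. In some of these labels Fcgr1 rested on few cells. Fcgr1 had 1 and 32 UMIs in CD4+ T cells, 23 of the 32 in 1 cell, and 7 and 53 in plasmacytoid DCs, 21 of the 53 in 1 cell. Its ratios in the class were 1.19 [1.12, 1.27] in Monocytes 2, 1.39 [1.29, 1.51] in Monocytes 1, 1.38 [1.11, 1.71] in Monocytes 3, 1.61 [1.49, 1.74] in Mø cluster 1 and 1.72 [1.51, 1.95] in Mø cluster 2. So the ratio was smallest in the label where Fcgr1 was highest. Fcgr4 was above 1 in 15 of 17 labels, with 10 intervals above 1. It was 126 CPM in APOE2 and 347 CPM in APOE4 in Mø cluster 1, a ratio of 2.75 [2.49, 3.04], and 104 and 214 CPM in Monocytes 1, a ratio of 2.05 [1.78, 2.36]. In Monocytes 2 it was 308 and 334 CPM, a ratio of 1.08 [0.975, 1.20], which does not leave out 1. Fcgr2b was below 1 in 17 of 20 labels, with 15 intervals below 1 and 0 above. It was 0.653 [0.607, 0.702] in Monocytes 2, 0.713 [0.672, 0.756] in Monocytes 1 and 0.710 [0.607, 0.831] in Monocytes 3, but 0.921 [0.874, 0.970] in Mø cluster 1 and 0.890 [0.834, 0.949] in Mø cluster 2. Fcgr3 was below 1 in 17 of 22 labels, with 10 intervals below 1 and 1 above, in cycling CD8+ T cells. Fcer1g was above 1 in 15 of 24 labels and its median log2 ratio over them was 0.05, with 8 intervals above 1 and 6 below.

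**Figure D2:**
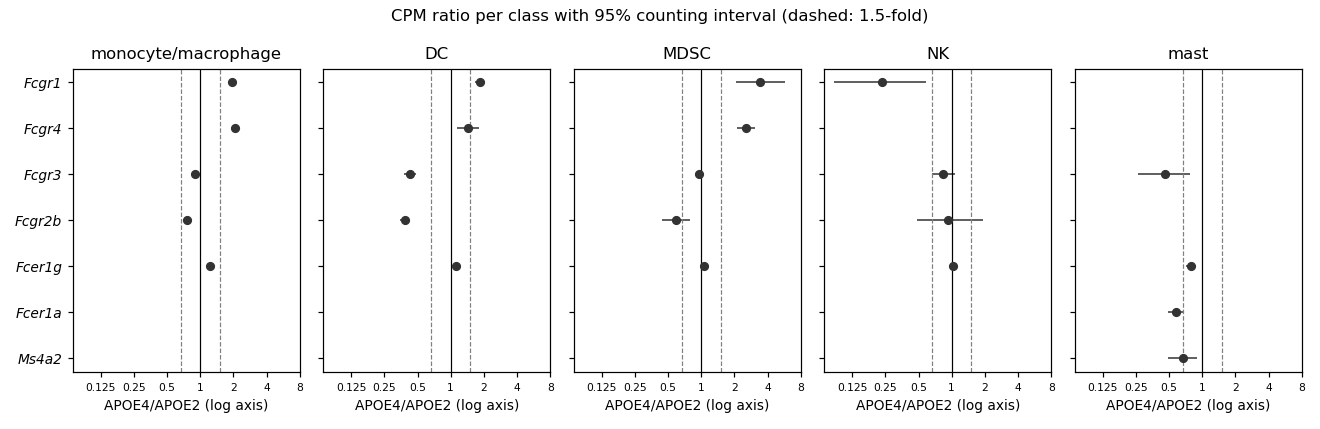
APOE4 over APOE2 ratio of CPM (log axis) per class for genes counted in both libraries with a total of at least 20 UMIs, with the exact 95% counting interval; dashed lines mark 1.5-fold in either direction. Fcgr1 and Fcgr4 lie right of 1 and Fcgr2b left of 1 in monocytes and macrophages, DCs and MDSCs (Fcgr1 at 1.95, 1.84 and 3.40), and all genes drawn for mast cells lie left of 1.

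The balance of activating to inhibitory UMIs is a ratio of counts from the same cells, so the total of a class does not enter it. The make-up of the class by label still does. In monocytes and macrophages, 1.40 UMIs of Fcgr1, Fcgr3 and Fcgr4 were counted per Fcgr2b UMI in APOE2 and 2.41 in APOE4, a fold of 1.72 [1.66, 1.78]. Fcgr1 alone moved from 0.365 to 0.942 UMIs per Fcgr2b UMI, a fold of 2.58. Within labels this fold was smaller: 1.96 in Monocytes 1, 1.82 in Monocytes 2, 1.94 in Monocytes 3, 1.75 in Mø cluster 1 and 1.93 in Mø cluster 2. For the balance of Fcgr1, Fcgr3 and Fcgr4 to Fcgr2b, equal weight for each label gave a log2 fold of 0.51 in place of 0.78. Weighting by the APOE2 make-up gave 0.45, and thinning to 1500 UMIs gave 0.89. Across labels, the balance was higher in APOE4 in 15 of 19, with 14 intervals above 1 and 0 below. Mø cluster 2 had the smallest fold of the class, 1.21 [1.11, 1.32], and Monocytes 2 the largest, 1.61 [1.48, 1.75]. The fold of 1.72 over the class thus lay above that of each of its labels with enough cells. The cycling myeloid label that the authors named Monocytic DCs stood at 1.12 in APOE2 and 1.80 in APOE4, a fold of 1.60 [1.43, 1.80]. The plot of activating per inhibitory UMIs shows the labels that went the other way or had few UMIs, among them B cells (0.581 and 0.250) and NK cluster 2 (10.6 and 7.24), whose intervals held 1.

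**Figure D3:**
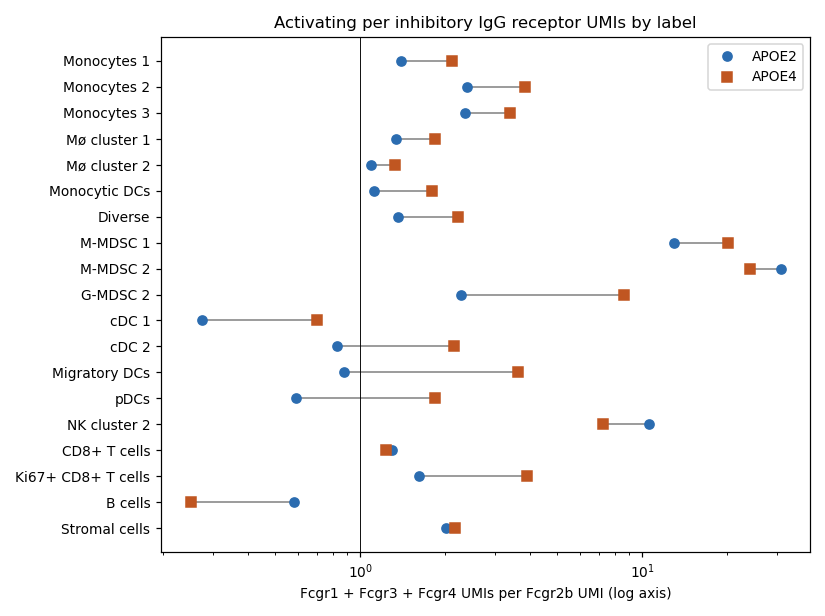
UMIs of Fcgr1, Fcgr3 and Fcgr4 per Fcgr2b UMI (log axis) in 19 labels, APOE2 as blue circles and APOE4 as orange squares joined by a line. In all labels of monocytes, Mø clusters and DCs that are drawn the APOE4 square lies to the right, as in cDC 2 (0.827 and 2.15).

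Single cells were sorted by which gene they held after thinning each cell to 1500 UMIs, which left 1710 APOE2 and 1529 APOE4 monocytes and macrophages. Cells with Fcgr2b but no Fcgr1 made up 42.7% in APOE2 and 24.7% in APOE4. Cells with Fcgr1 but no Fcgr2b made up 10.6% and 24.3%. Cells with both were 21.6% and 27.1%, and cells with neither 25.1% and 23.9%. Over the class, the libraries thus differed in which gene was found rather than in how many cells had none. By label the share with neither went both ways: 18.2% in APOE2 and 24.1% in APOE4 in Mø cluster 1, but 26.9% and 17.4% in Mø cluster 2. The share with both Fcgr1 and Fcgr4 was 5.61% in APOE2 and 15.9% in APOE4. CD8+ T cells were read at the same depth for comparison: Fcgr1 in 0% of 111 and 0.424% of 472 cells, Fcgr2b in 0.901% and 2.33%. Whether these UMIs are background or the cells' own was not tested. The shift from Fcgr2b only to Fcgr1 only was seen in each label of the class that was drawn. In Mø cluster 1, for example, Fcgr2b without Fcgr1 was 49.0% in APOE2 and 31.02% in APOE4.

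**Figure D4:**
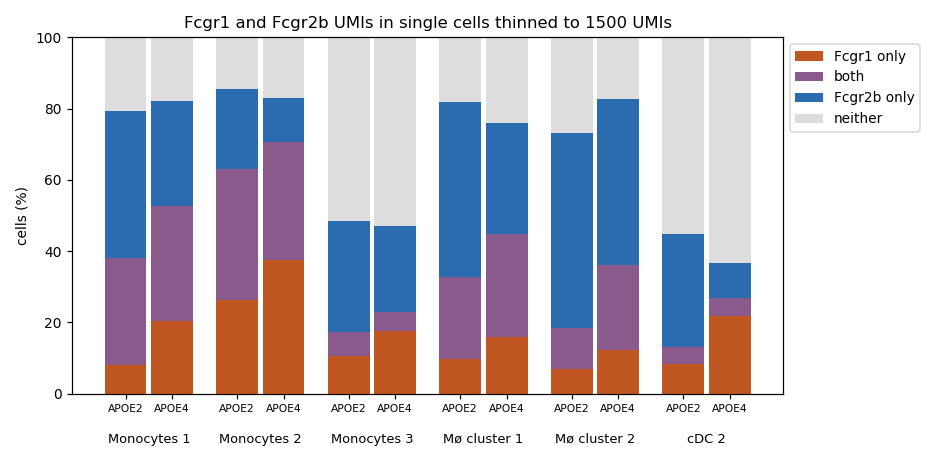
Percent of cells with Fcgr1 only, both genes, Fcgr2b only or neither among cells thinned to 1500 UMIs, in 6 labels and both libraries (stacked bars that sum to 100%). The Fcgr1 only part is taller in APOE4 in all 6 labels (cDC 2, 8.29% and 21.7%) and the Fcgr2b only part is shorter (cDC 2, 31.7% and 9.66%).

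DCs (852 and 731 cells) had the same directions for Fcgr1 and Fcgr2b, with a larger gap in Fcgr2b. Fcgr2b was 244 CPM in APOE2 and 93.3 CPM in APOE4, a ratio of 0.382 [0.350, 0.417]. Fcgr3 was 101 and 43.3 CPM, a ratio of 0.429 [0.376, 0.489]. Fcgr1 was 64.1 and 118 CPM, a ratio of 1.84 [1.65, 2.05]. Fcgr4, at 16.8 and 24.1 CPM, had a ratio of 1.44 [1.15, 1.80] and Fcer1g, at 1211 and 1351 CPM, one of 1.12. Of 5 members, 1 was called higher, against 8.27% of 11069 genes, and 2 were called lower, against 5.29%. Conventional DCs of type 2 (cDC 2) held 88.7% of the class's Fcgr1 UMIs in APOE2 and 85.5% in APOE4. There Fcgr1 was 118 and 233 CPM, a ratio of 1.98 [1.77, 2.23], Fcgr2b 396 and 165 CPM, a ratio of 0.417 [0.377, 0.461], and Fcgr3 182 and 78.6 CPM, a ratio of 0.431 [0.372, 0.499]. Fcgr2b was lower in cDC 1 too (162 and 68.8 CPM, 0.424 [0.328, 0.544]) and in migratory DCs (63.3 and 16.0 CPM, 0.253 [0.147, 0.414]). In plasmacytoid DCs (pDCs) it was 49.4 and 33.5 CPM, a ratio of 0.679 [0.450, 1.03] that does not leave out 1. The balance of activating to inhibitory UMIs in DCs was 0.745 in APOE2 and 1.99 in APOE4, a fold of 2.67 [2.38, 2.99]. The pDC label was 13.0% of DCs in APOE2 and 28.0% in APOE4, and pDC markers summed to 994 and 2303 CPM. Without the pDCs the log2 ratio of Fcgr2b was −1.25 in place of −1.39 and that of Fcgr1 1.05 in place of 0.88, and Fcgr4 was called higher as well. Thinning to 1500 UMIs gave Fcgr4 a log2 ratio of 0.91 in place of 0.52. The 5 monocyte markers summed to 1254 CPM in APOE2 and 3593 CPM in APOE4 in the class, higher in APOE4 as Fcgr1 was. Their sum was not specific to monocytes, at 1366 and 2377 CPM in T cells and 2062 and 1988 CPM in B cells. The 6 macrophage markers summed to 621 and 305 CPM in the class and to 922 and 393 CPM in cDC 2, lower in APOE4 as Fcgr2b and Fcgr3 were. No marker of either list was at 0 in the class, and their part in the results was not tested.

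In the neutrophil-like MDSC labels (726 and 797 cells), Fcgr4 was again higher in APOE4, while Fcgr3 and Fcer1g stood close to 1. Fcgr4 was 104 CPM in APOE2 and 265 CPM in APOE4, a ratio of 2.55 [2.12, 3.10]. Fcgr3 was 715 and 689 CPM, a ratio of 0.964, and Fcer1g 2570 and 2700 CPM, a ratio of 1.05. Fcgr1 was rare, with 14.4 and 49.1 CPM, a ratio of 3.40 [2.08, 5.80], and Fcgr2b, at 83.8 and 49.7 CPM, had a ratio of 0.593 [0.441, 0.793]. Of 5 members, 2 were called higher, against 7.89% of 6727 genes, and 1 was called lower, against 6.75%. M-MDSC 2 made up 4.96% (APOE2) and 23.8% (APOE4) of these cells and held 75.6% of its Fcgr1 UMIs in APOE4. Without this label the log2 ratio of Fcgr1 was 0.18 in place of 1.77, which ends its call, and that of Fcgr4 was 0.75 in place of 1.35. G-MDSC 2 held 61.9% of the class's Fcgr1 UMIs in APOE2 (13 of 21, with 8 in 1 cell) but only 1 UMI in APOE4. Within labels Fcgr1 was called higher in M-MDSC 1 (6 and 16 UMIs, 2.95 [1.10, 9.19]) and in M-MDSC 2 (2 and 59 UMIs, 5.12 [1.36, 43.2]). The 5 monocyte markers were higher in APOE4 as Fcgr1 and Fcgr4 were, at a summed 627 and 1491 CPM in the class, none at 0. They summed to 247 and 696 CPM in M-MDSC 1 and to 1651 and 3400 CPM in M-MDSC 2. In M-MDSC 2, Vcan was at 0 in both libraries and Fn1 in APOE2. The part of these markers in the results was not tested. Thinning gave 3.56 for Fcgr1, and leaving out cells of high doublet score gave 3.28, so its size in this class was not fixed. Within labels, Fcgr4 was 97.5 and 190 CPM in M-MDSC 1, a ratio of 1.95 [1.49, 2.57], and 353 and 637 CPM in M-MDSC 2, a ratio of 1.81 [1.16, 2.94]. In G-MDSC 1 it was 104 and 99.2 CPM, a ratio of 0.956 [0.528, 1.72]. The balance of activating to inhibitory UMIs was 9.93 and 20.2, a fold of 2.03 [1.52, 2.72], from 122 and 79 Fcgr2b UMIs. Thinning to 1500 UMIs gave a log2 fold of 0.44 in place of 1.02, and it moved the log2 ratio of Fcgr2b from −0.75 to −0.19, which ends that call. G-MDSC 2 (29 and 28 cells) held 39.3% of the class's Fcgr2b UMIs in APOE2 and 12.7% in APOE4. The 6 macrophage markers summed to 791 and 63.5 CPM in that label, and to 438 and 201 CPM in the class. Fcgr2b had a ratio of 0.627 [0.409, 0.947] in M-MDSC 1, and in M-MDSC 2 its interval held 1. The part of these differences in the Fcgr2b value was not tested.

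NK cells (247 and 744 cells) carried Fcer1g and Fcgr3, the pair through which they are known to kill antibody-coated cells. Fcer1g was 2201 and 2284 CPM, a ratio of 1.04, and Fcgr3 83.3 and 69.7 CPM, a ratio of 0.837 [0.661, 1.06] that does not leave out 1. Of 4 members, 1 was called lower, against 3.34% of 8948 genes, and 0 were called higher, against 5.2%. The called gene was Fcgr1, with 15 UMIs in APOE2 and 8 in APOE4, of which 11 and 5 lay in 1 cell of each library, and without those cells it was not called. In CD4+ T cells, Fcgr1 was counted in 1 UMI in APOE2 and 32 in APOE4, and 23 of the 32 lay in 1 cell of 303. In B cells, which carry Fcgr2b as their only Fc gamma receptor, Fcgr2b was 324 CPM in APOE2 (43 UMIs) and 78.4 CPM in APOE4 (28 UMIs), a ratio of 0.242 [0.145, 0.399] from 36 and 62 cells, with at most 8 and 4 of the UMIs in 1 cell. Other genes moved in this label too: the 6 macrophage markers summed to 301 and 70.02 CPM with none at 0, Fcer1g was 459 and 134 CPM, and Jchain, the joining chain of secreted antibodies, had 117 UMIs in 2 cells of APOE2 and 4785 in 5 cells of APOE4. Their part in the Fcgr2b value was not tested. Fcgr3 in B cells had 15 UMIs in APOE2, 11 of them in 1 cell, and 0 in APOE4. Cycling CD8+ T cells had Fcgr4 at 3 and 48 UMIs, the 48 in 10 cells with at most 14 in 1 cell, and Fcgr3 at 38.2 and 78.9 CPM.

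The IgE receptor was counted mainly in mast cells, where Fcer1a had 709 of 730 annotated UMIs in APOE2 and 229 of 239 in APOE4. Mast cells held 91.01% of the Ms4a2 UMIs in APOE2 and 76.2% in APOE4 (162 and 61 UMIs), and basophils a further 13 and 19 UMIs. All 3 chains were detected in 39 of 48 mast cells of APOE2 and 20 of 24 of APOE4, and in 5 of 12 and 3 of 11 basophils. Outside these labels Fcer1a was found in 4 of 4605 and 2 of 5350 cells. In mast cells the alpha chain Fcer1a was 2411 CPM in APOE2 and 1387 CPM in APOE4, a ratio of 0.575 [0.493, 0.669]. The beta chain Ms4a2 was 551 and 369 CPM, a ratio of 0.671 [0.491, 0.905] just short of 1.5-fold, and the gamma chain Fcer1g 4213 and 3312 CPM, a ratio of 0.786 [0.710, 0.870]. Fcgr3 was 248 and 115 CPM, a ratio of 0.464 [0.264, 0.776]. For Fcgr2b, 49 UMIs were counted in the APOE2 library but 0 in the other, which puts APOE4 at least 9.17-fold lower when 3 counts per library are taken as the floor, but 30 of the 49 lay in 1 cell, and without that cell the log2 bound was −1.87 in place of −3.20. Of 5 members, 3 were called lower, against 8.72% of 3040 genes, and 0 higher, against 5.43%. The secretory granule markers of the same cells were lower as well: Cpa3 at a ratio of 0.579 [0.547, 0.614], Mcpt4 at 0.439, Tpsb2 at 0.395 and Cma1 at 0.712, while Kit was at 0.908 [0.708, 1.16]. The 6 macrophage markers summed to 874 CPM in the mast cells of APOE2 and 139 CPM in those of APOE4, with 1 and 4 of them at 0, and so were lower in APOE4 as Fcgr3 and Fcgr2b were. The basophil protease Mcpt8 was 116 CPM in APOE2 and 2592 CPM in APOE4, from 4 of 48 and 5 of 24 cells. Of its 34 and 428 UMIs, 15 and 199 lay in 1 cell of each library. The other basophil markers read went the other way. Prss34 was at 371 and 127 CPM (0.343 [0.204, 0.551]) and Cd200r3 at 578 and 448 CPM (0.775 [0.582, 1.02]), an interval that held 1. Thinning to 1500 UMIs gave a log2 ratio of −0.44 for Fcer1a in place of −0.80, which ends its call, and keeping only cells under 5% mitochondrial UMIs gave −1.65; for Fcgr3 thinning gave −2.47 in place of −1.11, with an interval that reaches 0. What these marker differences contribute to the receptor values was not tested. In cells thinned to 1500 UMIs Fcer1a was found in 86.8% of APOE2 and 90.5% of APOE4 mast cells, so the share of cells with a UMI did not follow the CPM, and no order is read from it.

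**Figure D5:**
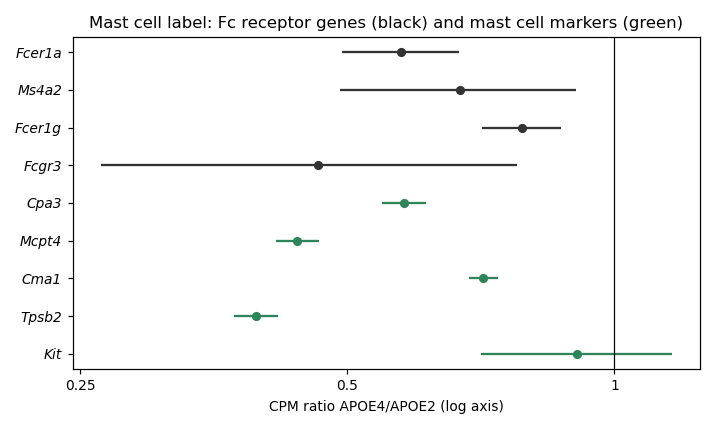
APOE4 over APOE2 ratio of CPM (log axis) in the mast cell label (48 and 24 cells) for 4 Fc receptor genes in black and 5 mast cell markers in green, with exact 95% counting intervals. Fcer1a (0.575) and Cpa3 (0.579) lie at nearly the same ratio, and only the interval of Kit reaches 1.

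The genes whose levels across 49 combinations of label and library were most like each member were named, by Pearson's r of log2(CPM + 10) over 8992 genes with at least 500 UMIs. This is a description over points that share 2 libraries. Fcgr1 was most like Ctss (r = 0.909), Ms4a6c (0.895) and Clec4a1 (0.894). Fcgr2b was most like Cysltr1 (0.908), Dpep2 (0.908) and Pid1 (0.898), so its nearest genes were different ones, although r between Fcgr1 and Fcgr2b was 0.838. Fcgr3 was most like Lilrb4a (0.931), Emilin2 (0.912) and the integrin gene Itgam (0.900), and Fcgr4 most like Tlr2 (0.924), Clec5a (0.911) and Cd14 (0.905). Fcer1g was most like Tyrobp (0.913), which encodes DAP12, the other ITAM adaptor of myeloid cells, then Rnf130 (0.883) and Fcgr3 (0.793). Fcer1a followed the mast cell proteases Tpsab1, Mcpt4 and Tpsb2, each at an r of 0.997. Ms4a2, with fewer UMIs than that minimum, followed Fcer1a at 1.00, then Tpsab1 and Mcpt4 at 0.998 each.

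The genes that act downstream of the receptors or beside them were read as 4 lists in monocytes and macrophages. Of all genes tested in this class, 6.93% were higher and 12.4% lower. Of 23 ITAM signalling genes, all tested, 1 was higher in APOE4, the Src family kinase Fgr at 78.1 CPM in APOE2 and 141 CPM in APOE4 (1.80 [1.67, 1.94]). Plcg2, at 81.2 and 117 CPM, came next at 1.44, then Pik3cd at 89.9 and 126 CPM (1.40), and neither was called. Among the 4 lower were the adaptor Blnk (47.6 and 23.1 CPM, 0.485) and Src (15.3 and 7.76 CPM, 0.508), with Cd247 and Plcg1 beside them at 0.538 and 0.653, and Nfatc1 was at 0.723. The kinase Syk itself was at 173 and 193 CPM, a ratio of 1.11. The median log2 ratio of the list was 0.15, against −0.07 over all genes. Of 17 inhibitory genes, 2 were higher, Cd300lf (60.2 and 99.9 CPM, 1.66) and Ptpn6, which encodes SHP-1 (194 and 295 CPM, 1.52), and 1 was lower, the adaptor Dok2 (163 and 82.2 CPM, 0.505). Cd300a at 1.41, Clec4a2 at 0.719 and Siglece at 0.688 were not called, and the list's median was 0.09. Inpp5d, the phosphatase that Fcgr2b recruits, was at 166 and 177 CPM, a ratio of 1.07.

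Of 8 tested receptors that pair with the gamma chain, 2 were higher, Clec4e, which encodes Mincle (214 and 346 CPM, 1.62 [1.55, 1.70]), and the NK receptor Ncr1 from 6 and 16 UMIs, and 1 was lower, Oscar (67 and 3 UMIs). Clec4n, which encodes Dectin-2, was 426 and 314 CPM, a ratio of 0.738, Clec4b1 was at 0.729 and Klrb1c at 1.45, none of them called, and the median was −0.16. Ncr1 and Klrb1c are also among the 4 NK markers, which summed to 5.44 CPM in APOE2 and 20.3 CPM in APOE4 in this class. Whether RNA of NK cells enters these values was not tested. Of 5 tested receptors for immunoglobulin outside the family, Fcgrt, which encodes the neonatal Fc receptor that recycles IgG, was lower at 159 and 62.9 CPM (0.395 [0.364, 0.428]). Trim21, the cytosolic antibody receptor, was higher at 7.85 and 14.1 CPM (1.80 [1.42, 2.28]). Fcrla (1.39), Fcrlb (0.725) and Fcrl1 (0.991) had intervals that held 1, and the median was −0.01.

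In DCs, 4 of 23 ITAM genes were higher (Blnk at 1.80, Lat, Cd247 and Zap70) and 1 lower (Pik3r1 at 0.641), with a median of 0.24 against 0.08 over all genes. Of all genes tested in DCs, 8.27% were higher and 5.29% lower. The 3 T cell markers summed to 33.5 CPM in APOE2 and 81.5 CPM in APOE4 in this class. The 4 NK markers summed to 14.6 and 46.4 CPM, and the part of T and NK cell RNA in these ITAM values was not tested. Of 17 inhibitory genes 0 were higher and 3 lower, Clec4a2 at 0.372, Dok2 at 0.403 and Lilrb4a at 0.521, and the median was 0.03. Of 7 gamma chain partners 4 were lower, Clec4b1 at 0.316, Clec4n at 0.432, Clec4e at 0.563 and Pira2 at 0.654, with a median of −0.61. Clec4e was thus higher in APOE4 in monocytes and macrophages and lower in DCs. Trim21 and Fcrla were the 2 higher of 3 other immunoglobulin receptors. In MDSCs, Lyn (1.63), Ptpn6 (1.51) and Trim21 were higher and Dok2 and Pira2 (0.357) lower. In NK cells, Nfatc1 was higher at 1.56 and Lilrb4a (0.641) and Clec4n were lower, and in mast cells Csk was higher and Pirb and Lilrb4a lower. The genes named for these 4 classes were chosen after their values were seen.

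On the stretch of chromosome 1 from Fcgr2b to Fcer1g, 13 annotated genes were in the files and 8 had enough UMIs in monocytes and macrophages. Fcgr4 was the 1 called higher, and the 1 called lower was Gm10522, a long noncoding RNA between Fcgr2b and Fcgr4 (76 and 26 UMIs, 0.452). Over all genes tested in this class, 6.93% were called higher and 12.4% lower. Sdhc, a subunit of succinate dehydrogenase between Fcgr3 and Fcer1g, was at 0.768, near the ratio of Fcgr2b. Of the neighbouring Fc receptor genes, Fcgr4 and Fcer1g thus lay above 1 and Fcgr2b and Fcgr3 below 1, and only Fcgr4 was called. Gm38204, an antisense gene over the start of Fcgr2b, had 0 UMIs in this class; whether reads were counted by strand is not given in the sources used here. The last 500 bases of the Fcgr2b transcripts shared 5.10% of their stretches of 31 bases with Fcgr3, and those of Fcgr3 shared 0.521% with Fcgr2b, so reads in those stretches may be lost or split between these genes.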

How the data were processed

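Leukocytes of 2 pooled libraries, APOE2 and APOE4, were read by droplet 3′ single-cell RNA sequencing on mm10, per the labels' protocols and the submitters' processing notes, which also name Seurat 3.0.2. Per the file headers, the deposited matrices of raw UMI counts come from Cell Ranger 3.0.1. A table that the authors deposited gives each annotated cell's name, UMI count and percent of mitochondrial UMIs. For doublet removal, strand and the naming of cells, the sources used here give nothing. Annotated cells held 38959426 UMIs in APOE2 and 36046103 in APOE4. Counts of the matrices were summed per label, class and library with scipy 1.17.1, and expressed as CPM. Intervals are exact: conditional binomial for ratios, Poisson for levels, both covering counting error only at 95%. The interval of a balance is that of the log odds ratio of 4 counts. A 0 was set to 3 counts where a fold was needed. The method was tested on data simulated with the counting error alone that its intervals assume. That simulation held no spread between cells, mice or libraries, so it cannot show how the calls hold under such spread. The doublet score is the share of simulated doublets near a cell, and the 5% of highest score per library were left out in 1 alternative. Thinning drew 1500 UMIs per cell (seed 0) and left out shallower cells. The rule for named genes took every member in every class, the 3 genes of each list with the largest fold in each direction in monocytes and macrophages, ranked by the interval bound nearest to 1, and the 3 genes most like each member. Of the ITAM signalling list, 1 gene is not reported here and is left out of its counts and medians. The members and lists were chosen with earlier results of these data known. Promoter sequences and positions come from RefSeq (GRCm38.p6) and GENCODE.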

Additional observations from a re-analysis of the deposited data

Results flagged for a closer look

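Effects of opposite direction in 2 classes were found for 2 genes; the difference between the classes was not tested, and with 1 library per genotype a single sample stands for each side. Fcgr1 had a log2 ratio (APOE4 over APOE2) of 1.77 in MDSCs and −2.10 in NK cells. The second rests on 15 and 8 UMIs, most of them in 1 cell of each library. The first rests on 21 and 78 UMIs and was not called without the M-MDSC 2 label. Of these UMIs, M-MDSC 2 held 9.52% in APOE2 and 75.6% in APOE4, and G-MDSC 2 held 61.9% in APOE2. Fcer1g had a log2 ratio of 0.30 in monocytes and macrophages and −0.35 in mast cells, with 48 and 24 mast cells.

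The barcodes outside the authors' annotation, 398 in APOE2 and 304 in APOE4, also held UMIs of all 7 genes. Over both libraries they held 263 UMIs of Fcgr1, 681 of Fcgr2b, 579 of Fcgr3, 112 of Fcgr4, 3871 of Fcer1g, 341 of Fcer1a and 56 of Ms4a2, each above the 3 counts that a count of 0 allows. Fcer1a stood at 88.1 CPM in APOE2 and 110 CPM in APOE4 among them, above its 18.7 and 6.63 CPM over the annotated cells.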

How the results depend on the processing

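Over 24 gene ratios and 200 alternatives, 0 called values changed sign, 193 values kept their direction, 130 stayed within the main interval and 70 moved out of it; the cause was not tested where none is named. Log2 values are given per class, and M stands for monocytes and macrophages. Thinned to 1500 UMIs, Fcgr1 was 0.90 in M, 1.08 in DCs and 3.56 in MDSCs; Fcgr2b −0.50 in M, −1.65 in DCs, −0.19 in MDSCs, 1.09 in NK cells and −0.37 in mast cells; Fcgr3 −1.53 in DCs and −2.47 in mast cells; Fcgr4 0.91 in DCs, Fcer1g 0.26 in M and Fcer1a −0.44 in mast cells. The balance of activating to inhibitory UMIs was then 0.89 in M, 1.81 in DCs and 0.44 in MDSCs. With only cells under 5% mitochondrial UMIs, Fcgr1, Fcgr2b, Fcgr3, Fcgr4 and Fcer1g were 0.90, −0.47, −0.21, 0.93 and 0.29 in M, and Fcgr2b, Fcer1g and Fcer1a −2.78, −0.73 and −1.65 in mast cells. Without the skin resident label, Fcgr1, Fcgr2b, Fcgr3 and Fcer1g were 0.90, −0.46, −0.22 and 0.27. As mean UMIs per cell, which carries depth, the 5 genes were 0.72, −0.65, −0.40, 0.81 and 0.058 in M, Fcer1g 0.051 in DCs, −0.34 in NK cells and −0.18 in mast cells, and Fcgr3 −0.65 in NK cells.

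With equal weight per label, Fcgr1, Fcgr4 and Fcer1g were 0.53, 0.73 and 0.16 in M; Fcgr1, Fcgr2b, Fcgr3 and Fcer1g 1.18, −1.26, −0.94 and 0.063 in DCs; Fcgr3, Fcgr4 and Fcer1g 0.12, 0.54 and 0.0052 in MDSCs; the balance was 0.51, 1.60 and 0.41. Genes called higher then numbered 1 in M, 2 in DCs and 1 in MDSCs, and genes called lower 0 in MDSCs and NK cells. With the median of gene ratios as scaling, Fcgr2b, Fcgr3 and Fcer1g were −0.35, −0.11 and 0.35 in M, and Fcer1g 0.072 in DCs and −0.037 in NK cells. Without the 5% of highest doublet score, Fcgr3 was −1.59 and Fcer1g 0.11 in DCs, and Fcgr1 3.28 in MDSCs. At 2-fold, 1 gene was higher in M, 0 in DCs, and 0 lower in MDSCs. With at least 100 UMIs, 1 was higher in MDSCs, 0 lower in NK cells and 1 lower in mast cells.

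Further alternatives were chosen after seeing the data. With labels weighted as in APOE2, Fcgr1, Fcgr2b, Fcgr3, Fcgr4 and Fcer1g were 0.54, −0.27, −0.21, 0.96 and 0.19 in M with a balance of 0.45, Fcer1g was 0.077 in DCs, and Fcgr1, Fcgr4 and Fcer1g were 0.58, 0.75 and 0.0022 in MDSCs. Without Monocytes 2, Fcgr1, Fcgr2b and Fcer1g were 0.71, −0.29 and 0.28 with a balance of 0.56. Without pDCs, Fcgr1, Fcgr2b and Fcer1g were 1.05, −1.25 and 0.11, and 2 genes were higher. Without M-MDSC 2, Fcgr1 and Fcgr4 were 0.18 and 0.75, and 1 gene was higher. Without the cell with the most UMIs of a gene, 0 genes were lower in NK cells and Fcgr2b was −1.87 in mast cells. No paired analysis was possible because each genotype has 1 library. Depth limits the values of the 24 to 48 mast cells, the lymphocytes and Fcgr1 in MDSCs, and the 6 mice of a pool cannot be told apart.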

Other observations

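Labels outside the 7 classes carried the genes as well. In the Diverse label (211 and 270 cells), Fcgr1 was 261 CPM in APOE2 and 433 CPM in APOE4, Fcgr4 87.8 and 209 CPM, and Fcgr2b 602 and 488 CPM. In the label named Monocytic DCs, Fcgr1 was 152 and 176 CPM and Fcgr4 43.4 and 65.7 CPM, while Fcgr3 (338 and 227 CPM), Fcgr2b (475 and 261 CPM) and Fcer1g (2004 and 1597 CPM) were lower in APOE4. Stromal cells, 85 in each library, held 29 Fcgr1 UMIs in APOE2 and 8 in APOE4, and 50 and 18 of Fcgr2b. The skin resident label had 82 and 12 Fcgr2b UMIs and 2 and 0 of Fcgr1, from 47 and 8 cells.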
